A study of Mus musculus with 14 samples.

Results

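The response of the Cort-/- brain to ischemic stroke was described across genes by comparing the ischemic (MCAO) with the contralateral (CL) hemisphere 48 h after transient occlusion of the middle cerebral artery. The members are the 8 libraries of Cort-/- mice among the 14 libraries analysed here, chosen by their labels: 5 from MCAO hemispheres and 3 from CL hemispheres. All 8 come from mice on a C57BL/6J background that lack Cort, the gene of the neuropeptide cortistatin, and whose artery was occluded for 20 min, the duration that the labels give for 12-week-old mice. The CL libraries thus carry the deletion and the operation too and are no sham control. The other 6 libraries, 3 CL and 3 MCAO from Cort+/+ mice with the same occlusion and time, enter the shared estimate of the spread, the check of Cort, a test of the difference between genotypes and some medians set beside those of the Cort-/- libraries. A hemisphere holds infarct, its border and spared tissue together, and in bulk RNA fewer cells of a type and less RNA per cell cannot be told apart. Expression is given in RPKM, reads scaled by gene length and by library depth. Differences are given as log2FC, the MCAO mean minus the CL mean of log2(RPKM + 0.1), with its standard error (SE), a scale that understates the change of genes near 0.

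When blood flow to brain tissue stops, neurons in the core lose ATP, depolarize and die within hours, while microglia, the resident macrophages of the brain, and astrocytes react over days. Reactive microglia and astrocytes divide, take up debris, present antigen and secrete chemokines, and type I interferon signalling switches on a common set of antiviral genes in them. The proximal middle cerebral artery feeds the striatum, whose main cells, the medium spiny neurons, carry the dopamine receptors Drd1 or Drd2.

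The targeted gene was checked first. Cort was at 0, 0.0444 and 0 RPKM in the CL libraries and at 0, 0.136, 0.0559, 0 and 0.0385 RPKM in the MCAO libraries, which is at most 4 reads in any of them. The Cort+/+ libraries held 2.61 to 5.68 RPKM of Cort. Read totals were 33059091 to 35443872 in the CL and 25991115 to 43034554 in the MCAO libraries, the lowest being MCAO replicate 3. The labelled tissue showed its defining markers, with Snap25, a membrane fusion protein of synapses, at 758 to 979 RPKM, and the T cell receptor chains Cd3e and Cd3d at 0.0592 RPKM or less in each library. Some libraries stood apart. CL replicate 2 was the highest CL library for 541 of the 924 genes that rose, and MCAO replicate 3 was the lowest MCAO library for 669 of them. MCAO replicate 4 held 27.2 RPKM of 4 hypothalamic peptide genes (Hcrt, Pmch, Avp and Oxt) against 64.9 to 114 RPKM in the other 7. CL replicate 3 held 1.16 RPKM of 3 cerebellar markers against 0.398 RPKM or less elsewhere. The part of these differences in the results below was tested only by leaving libraries out.

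Of 46904 genes, the 17477 whose average over the 8 libraries reached 0.5 RPKM were tested with limma. Differentially expressed genes (DEGs, Benjamini-Hochberg adjusted p below 0.05) numbered 1322, or 7.56% of the genes tested, with 924 higher (5.29%) and 398 lower (2.28%) in the MCAO hemisphere. The directions differed in size. The median log2FC of the genes that rose was 0.78 and that of the genes that fell was -0.27, beside -0.03 over all genes tested. A log2FC over 1 was reached by 348 of the rising genes, over 2 by 82 and over 3 by 20, whereas 10 of the falling genes lay under -1 and 0 under -2, and 338 of the 398 fell by less than 0.5 on the log2 scale. They also differed in level, since the CL level had a median of 2.19 RPKM among genes that rose and 22.0 RPKM among genes that fell. All 5 MCAO libraries lay above all 3 CL libraries for 899 of the 924 rising genes, against 9.1% of all genes tested, and below them for 385 of the 398 falling genes, against 8.55%. Per-gene calls depended on single libraries. Without CL replicate 1, 2 or 3 the DEGs numbered 370, 740 and 370. Without MCAO replicate 1 or 4 they numbered 664 and 776. In all, 263 DEGs (218 higher and 45 lower) were called in all 8 refits that left out 1 Cort-/- library. The share of DEGs that were higher was 69.9%, and it was 80.0% after scaling by median ratios and 83.0% after scaling to TPM.

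**Figure D1:**
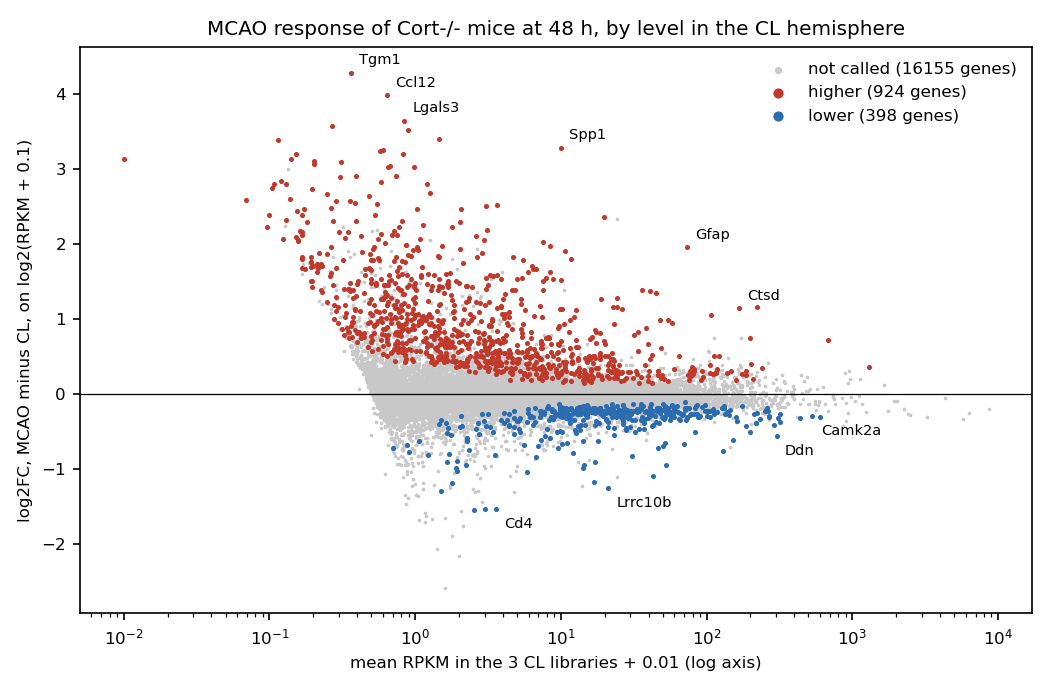
Change against level for the 17477 genes tested. The x axis is the mean RPKM of the 3 CL libraries plus 0.01 on a log axis, the y axis is log2FC (MCAO minus CL), and colours mark the 924 genes called higher, the 398 called lower and the rest. Rising genes reach 4.28 at low CL levels, while falling genes reach -1.55 and lie mostly at higher levels.

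Interferon-stimulated genes rose as a group, in a list chosen with earlier results of these data known, so the counts do not test the group. Of 38 tested genes of this list, 34 rose and 0 fell, beside 5.29% of all genes tested that rose. The median log2FC was 1.77 against -0.03 over all genes. No overlap between hemispheres was seen for 33 of them, and 9.1% of all genes tested had all MCAO above all CL libraries. Isg15, a ubiquitin-like protein attached to other proteins in antiviral defence (chromosome 4, 156283883 to 156285303), was at 0.949, 0.855 and 0.835 RPKM in the CL and at 20.2, 10.7, 2.37, 16.8 and 19.4 RPKM in the MCAO libraries. Every MCAO library was above every CL library, and replicate 3 was the lowest by a wide margin (log2FC 3.52 ± 0.70, SE, adjusted p = 0.0118). Irf7, the transcription factor that amplifies interferon production, was at 0.545, 0.968 and 0.465 RPKM in CL and at 10.7, 5.24, 1.47, 8.0 and 10.5 RPKM in MCAO libraries, the same order of replicates at its ends (log2FC 3.04 ± 0.70, adjusted p = 0.0208). Oasl2, of the oligoadenylate synthetase family of RNA sensors, rose by a log2FC of 3.03 ± 0.65. Ifitm3, a membrane protein that blocks virus entry and the most abundant member of the list, went from 10.2 to 14.6 RPKM in CL to 19.5 to 62.4 RPKM in MCAO libraries (log2FC 1.80 ± 0.42, adjusted p = 0.0224). Averaged over the list, MCAO libraries lay 0.77 to 2.43 above the CL mean and CL libraries within -0.12 to 0.15 of it, on the log2 scale. The count fell to 3, 18 and 4 without CL replicate 1, 2 or 3, to 15 and 21 without MCAO replicate 1 or 4, and to 21 by voom on reads, and was 35 without both CL replicate 2 and MCAO replicate 3. Without the mean filter it was 20 of 39. Isg15 and Oasl2 lost their call without CL replicate 1 or 3, Irf7 also without MCAO replicate 1, and Ifitm3 without these and MCAO replicate 4. The median of the list stayed between 1.64 and 2.05 when any 1 of the 8 libraries was left out.

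Interferon target promoters carry the response element bound by interferon regulatory factors. RefSeq promoter windows (GRCm38.p6) that reach from 250 bases before to 50 bases after a transcription start were at hand for 11205 of the genes tested (14410 windows). The core letters GAAANNGAA, on either strand, were in 17 of 30 windows of the interferon-stimulated list (56.7%), in 7 of 9 windows of the interferon-inducible GTPases, in 11.5% of the windows of genes that rose, in 7.47% of those of genes that fell and in 6.89% of all windows. Stretches of 30 bases are shown for the rising genes of the list with the largest log2FC among those whose window holds these letters before the start, 5′ to 3′ on the strand of the gene, with the letters in capitals, so that the element can be read beside the change. Capitals mark a single match in each stretch. The stretches of Isg15, Oas1a and Bst2 hold a further match that overlaps it and stays partly in lower case. The marked elements begin 66, 84, 20, 102 and 124 bases before the start, in the order given.
Isg15, log2FC 3.52, chr4:156200865-156200894, minus strand: aaaggaaaccGAAACAGAAaatagctctgg
Ifit1, log2FC 2.90, chr19:34640795-34640824, plus strand: cagtctcagtTTCAGTTTCtcactgctgac
Oas1a, log2FC 2.73, chr5:120907526-120907555, minus strand: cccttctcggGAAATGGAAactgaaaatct
Ifit3, log2FC 2.52, chr19:34583417-34583446, plus strand: tactttcctcTTCCCTTTCacaaacactga
Bst2, log2FC 2.51, chr8:71537577-71537606, minus strand: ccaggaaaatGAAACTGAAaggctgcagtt

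Of the GTPases that interferon induces against intracellular microbes, 11 of 11 tested rose (15 are listed), with a median log2FC of 1.58. The counts of this paragraph stand beside 5.29% of all genes tested that rose. Gbp5, Gbp6, Iigp1 and Ifi47 averaged 0.439, 0.479, 0.338 and 0.202 RPKM in CL and passed the filter through the MCAO libraries. Gbp3 was at 0.940, 0.660 and 0.809 RPKM in CL and at 6.63, 3.84, 1.77, 4.99 and 6.64 RPKM in MCAO libraries (log2FC 2.31 ± 0.42, adjusted p = 0.00837) and was called in each of the 8 refits with 1 library left out. The MHC class I list, which carries peptides from inside the cell to its surface, had 12 of 18 tested genes higher and 0 lower (median 0.75). Its regulator Nlrc5 rose by 2.06 ± 0.44, the immunoproteasome subunit Psmb8 by 1.82 ± 0.40, and B2m, the invariant chain of class I molecules, went from 51.7 to 58.4 RPKM in CL to 77.8 to 138 RPKM in MCAO libraries (0.98 ± 0.20, adjusted p = 0.0126). Class II genes, which present antigen taken up from outside, rose in 4 of 6 tested (H2-Aa, H2-Ab1, H2-Eb1 and Cd74). Cd74, the invariant chain of class II molecules, was at 1.88, 1.44 and 1.79 RPKM in CL and at 9.49, 4.13, 5.08, 4.09 and 5.60 RPKM in MCAO libraries (1.61 ± 0.25, adjusted p = 0.00432), and here replicate 3 was not the lowest. Without CL replicate 1, 2 or 3 the GTPase count was 4, 6 and 4, and it was 6 and 7 without MCAO replicate 1 or 4. The class I count was 0 and 1 without CL replicate 1 or 3, 7 and 8 without MCAO replicate 1 or 4, and the class II count was 2 without CL replicate 2 or 3. Without the mean filter the GTPase, class I and class II counts were 7 of 15, 8 of 20 and 3 of 8.

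Microglial genes of the injury state rose further than those of the resting state. Of 24 tested genes of the disease-associated list, 20 rose (median 1.27), and of 19 homeostatic microglial genes 9 rose (median 0.37), and in neither list did a gene fall. The difference between these lists was not tested, and 5.29% of all genes tested rose. Spp1, the secreted matrix protein osteopontin (chromosome 5, 104582165 to 104589235), was at 9.82, 12.7 and 7.36 RPKM in CL and at 164, 68.8, 50.1, 166 and 83.7 RPKM in MCAO libraries, with the groups far apart (log2FC 3.28 ± 0.53, adjusted p = 0.00539). Lgals3, a galectin of phagocytes, was at 0.256, 1.70 and 0.525 RPKM in CL and at 13.1, 7.30, 6.29, 12.3 and 8.37 RPKM in MCAO libraries (3.64 ± 0.49, adjusted p = 0.00318). CL replicate 2 was the highest CL library for both genes. Cst7, an inhibitor of lysosomal proteases, rose by 2.89 ± 0.59 and Clec7a, a receptor for fungal glucans, by 2.46 ± 0.30. Apoe, the most abundant gene of the list and the main lipid carrier of the brain, did not pass the test, at 567 to 617 RPKM in CL and 479 to 581 RPKM in MCAO libraries. Among resting-state genes Olfml3 rose by 1.54 ± 0.22 and the fractalkine receptor Cx3cr1 by 0.70 ± 0.14, whereas the most abundant, Bin1, was at 95.6 to 102 RPKM in CL and 96.0 to 105 RPKM in MCAO libraries. Without CL replicate 1 or 3 the disease-associated count was 10 and 11, and the homeostatic count was 4, 5 and 3 without CL replicate 1, 2 or 3, 4 without MCAO replicate 1, and 6 without MCAO replicate 4 or 5 or without both CL replicate 2 and MCAO replicate 3. Spp1, Lgals3, Clec7a and Olfml3 were called in all 8 refits, while Cst7 lost its call without CL replicate 1 or 3 and Cx3cr1 without CL replicate 3.

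Lysosomal genes moved with them. Of 31 tested cathepsins, hydrolases and lysosomal membrane proteins, 20 rose and 0 fell (median 0.51), beside 5.29% of all genes tested that rose. Ctsd, the aspartic protease cathepsin D, was at 158, 182 and 158 RPKM in CL and at 464, 343, 282, 389 and 374 RPKM in MCAO libraries, with every MCAO library above every CL library (log2FC 1.14 ± 0.18, adjusted p = 0.00448). Cd68, a membrane protein of phagocyte lysosomes, rose from 6.73 to 11.7 RPKM in CL to 20.6 to 43.2 RPKM in MCAO libraries (1.97 ± 0.31), and Gpnmb by 1.85 ± 0.32. Cst3, the most abundant member and a secreted protease inhibitor, was at 621 to 635 RPKM in CL and 641 to 695 RPKM in MCAO libraries and did not pass. The count was 8 without CL replicate 1 or 3, and Ctsd, Cd68 and Gpnmb were called in every one of the 8 refits.

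Secreted signals and their receptors rose in part, beside 5.29% of all genes tested. Chemokine ligands were higher in 8 of 14 tested genes, with 0 lower (median 1.77). Ccl12, a monocyte chemoattractant (chromosome 11, 81992645 to 81994466), was at 0.432, 1.12 and 0.345 RPKM in CL and at 15.5, 6.47, 3.73, 20.9 and 15.1 RPKM in MCAO libraries (log2FC 3.98 ± 0.70, adjusted p = 0.00759). Cxcl10, a T cell chemoattractant induced by interferon, was at 0.0763, 0.554 and 0.142 RPKM in CL and at 4.85, 2.30, 1.32, 6.36 and 5.44 RPKM in MCAO libraries (3.57 ± 0.66, adjusted p = 0.00914). Both genes were separated between hemispheres, with MCAO replicate 3 lowest. Ccl2 rose by 3.09 ± 0.76, and Cx3cl1, the most abundant ligand and a product of neurons, did not pass, at 160 to 203 RPKM in CL and 133 to 172 RPKM in MCAO libraries. Of 12 tested inflammatory cytokines 4 rose, namely Spp1, Clcf1 (an IL-6 family cytokine, 2.53 ± 0.26), Tgfb1 (1.23 ± 0.21) and Il33 (0.76), and of 25 tested cytokine receptors and feedback genes 9 rose, among them Bcl3 (1.86 ± 0.48), Socs3, the feedback inhibitor of STAT3 (1.50 ± 0.39) and the TWEAK receptor Tnfrsf12a (1.45 ± 0.25). Pattern recognition genes rose in 11 of 17 tested, led by the scavenger receptor Msr1 (3.38 ± 0.59), with Tlr2 at 2.01 ± 0.48 and the adaptor Myd88 at 0.84 ± 0.19. Complement genes rose in 7 of 17 tested, including the anaphylatoxin receptors C3ar1 (2.12 ± 0.45) and C5ar1 (1.93 ± 0.49), and C1qa, a chain of the first complement component, went from 39.1 to 54.7 RPKM in CL to 72.5 to 163 RPKM in MCAO libraries (1.34 ± 0.28). Without CL replicate 1 the counts of chemokines, receptors, pattern recognition and complement were 3, 2, 3 and 1, and without CL replicate 3 they were 5, 2, 4 and 1. The receptor count was 4 without CL replicate 2 and 3, 4 and 4 without MCAO replicate 1, 4 or 5, the pattern recognition count was 7 without MCAO replicate 1, and no other left-out library moved a count of these lists by over 1.5 times in the downward direction. Ccl12, Clcf1, Tgfb1, Tnfrsf12a and Msr1 were called in all 8 refits, and Cxcl10 in all but the one without CL replicate 1. Ccl2, Bcl3 and Socs3 were called in 2, and the refits without each CL library and without MCAO replicate 1, 4 and 5 lost them. C3ar1 and C1qa were called in 6, Myd88 in 5, and Tlr2 and C5ar1 in 3.

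Lists that mark cells from the blood differed in their calls. Monocyte and macrophage genes rose in 5 of 14 tested (27 are listed), or 35.7% against 5.29% of all genes tested. They were Vim (2.36), Ms4a6d (2.17), Plin2 (1.83), Lyz2 (1.67) and Fn1 (0.75), of which Vim, an intermediate filament, is also made by astrocytes and vessels. The list had a median of 1.25, and its mean ranged from -0.29 to 0.43 in CL and from 0.68 to 2.07 in MCAO libraries. Its count was 3 without CL replicate 1 or 3 or MCAO replicate 1, 4 or 5, and 8 without MCAO replicate 3. Among 7 tested neutrophil genes 1 rose, the growth factor receptor Csf3r (0.66 ± 0.11), and the granule proteins S100a8 and S100a9 overlapped between hemispheres, at 0.953 to 2.69 and 2.84 to 5.65 RPKM in CL and at 1.01 to 5.22 and 1.85 to 8.26 RPKM in MCAO libraries. Lcn2, an iron-binding protein of neutrophils and reactive astrocytes, was at 1.78, 3.78 and 2.43 RPKM in CL and at 7.43, 6.99, 0.993, 30.8 and 7.81 RPKM in MCAO libraries, where replicate 3 lay below every CL library, and it did not pass (1.36 ± 0.95, adjusted p = 0.425). In the lymphocyte list 5 of 24 genes reached the filter and 1 of them, Cd4, was called, as a fall. Cd4, a co-receptor of helper T cells (chromosome 6, 124841655 to 124874758), was at 3.76, 3.47 and 3.53 RPKM in CL and at 0.525, 1.03, 1.53, 1.42 and 1.80 RPKM in MCAO libraries, with no overlap (log2FC -1.53 ± 0.32, adjusted p = 0.0144), in libraries where the T cell receptor chains Cd3e and Cd3d were at 0.0592 RPKM or less. It lost its call without CL replicate 1 or 3. The 8 tested blood genes, haemoglobins and platelet genes among them, gave 0 DEGs by limma, 1 gene at an unadjusted p below 0.05 and 0 by voom. The platelet chemokine Pf4 was at 0.86 ± 0.38 and the integrin Itga2b at 0.23 ± 0.20, and summed erythrocyte markers were at 84.4 to 131 RPKM in CL and 82.4 to 174 RPKM in MCAO libraries.

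Astrocyte genes are given as lists of the reactive state and of resting functions. Their counts stand beside 5.29% of all genes tested that rose and 2.28% that fell. Of 28 tested genes of the reactive state 15 rose and 0 fell (median 1.47). Gfap, the intermediate filament of reactive astrocytes (chromosome 11, 102778159 to 102791738), was at 53, 110 and 55.4 RPKM in CL and at 361, 254, 149, 348 and 287 RPKM in MCAO libraries. The hemispheres did not overlap, although CL replicate 2 came within reach of MCAO replicate 3 (log2FC 1.96 ± 0.44, adjusted p = 0.0186). Timp1, an inhibitor of matrix proteases, rose by 2.68 ± 0.66, and Vim was at 14.7, 30.6 and 14.6 RPKM in CL and at 126, 82.2, 58.6, 163 and 84.5 RPKM in MCAO libraries (2.36 ± 0.35, adjusted p = 0.00392). Genes of resting astrocyte functions gave 4 higher (Aqp4, Aldh1l1, Kcnj10 and Gjb2) and 2 lower of 28 tested, with a median of -0.04. The water channel Aqp4 rose by 0.68 ± 0.13, from 16.4 to 17.8 RPKM in CL to 22.4 to 31.6 RPKM in MCAO libraries, and the folate enzyme Aldh1l1 by 0.47 ± 0.12, while the glutamate transporter Slc1a2 fell by 0.23 and the proteoglycan Gpc5 by 0.26 on the log2 scale. Sparcl1, the most abundant of them, had all MCAO libraries (529 to 664 RPKM) below all CL libraries (673 to 688 RPKM) but did not pass (adjusted p = 0.133). The reactive count was 5 and 7 without CL replicate 1 or 3 and 10 without MCAO replicate 1, and the resting-function calls numbered 1, 2 and 2 in all without CL replicate 1, 2 or 3, 1 and 3 without MCAO replicate 1 or 4, 3 without MCAO replicate 5, and 2 without both CL replicate 2 and MCAO replicate 3. Vim and Aqp4 were called in all 8 refits, and Gfap lost its call without CL replicate 1 or 3. Timp1, Aldh1l1, Gjb2, Slc1a2 and Gpc5 were called in 4, 3, 4, 2 and 3 refits. Falls of the resting-function list numbered 0 after TPM scaling or quantile normalization and 1 after median-ratio scaling. They numbered 0 in a model of the 8 Cort-/- libraries alone, and the small counts of this list are not read as a class change.

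Cell division genes rose from near 0, and their counts stand beside 5.29% of all genes tested that rose. Of 34 tested genes of mitosis and the spindle 29 rose and 0 fell (median 1.46, 54 listed), and 20 to 30 remained called when any 1 of the 8 libraries was left out. Without the mean filter 40 of 54 were called higher (median 1.32). Mki67, the nuclear protein whose antibody Ki-67 marks dividing cells (chromosome 7, 135291513 to 135318299), was at 0.187, 0.392 and 0.246 RPKM in CL and at 2.56, 1.79, 1.25, 2.80 and 2.34 RPKM in MCAO libraries (log2FC 2.57 ± 0.30, adjusted p = 0.00277). Top2a, the topoisomerase that untangles replicated chromosomes, was at 0.239, 0.605 and 0.290 RPKM in CL and at 3.21, 2.08, 1.48, 3.27 and 3.23 RPKM in MCAO libraries (2.54 ± 0.32, adjusted p = 0.00305). In both genes, as in Spp1, Lgals3, Ccl12 and Cxcl10, CL replicate 2 was highest in its hemisphere and MCAO replicate 3 lowest. Other inflammatory genes differed, as CL replicate 2 was not the highest CL library for Isg15, Gbp3 or Cd74. Cit, the most abundant gene of the list and also a kinase of neurons, was at 17.3 to 20.1 RPKM in CL and 15.0 to 17.7 RPKM in MCAO libraries and did not pass. DNA replication genes rose in 16 of 35 tested (median 0.45), with thymidine kinase Tk1 at 2.31 ± 0.43, the chromatin assembly subunit Chaf1b at 1.76 ± 0.33, and the abundant sliding clamp Pcna at 0.47 ± 0.12. The replication count was 3, 7 and 4 without CL replicate 1, 2 or 3, 7 without MCAO replicate 1 or 4, and 10 without MCAO replicate 5. Mki67 and Top2a were called in all 8 refits, Tk1 lost its call without CL replicate 1, Chaf1b without CL replicate 3, and Pcna was called in 2.

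Promoters of mitotic genes share the cell cycle homology region, whose letters TTTGAA are bound by the MuvB complexes. These letters, on either strand, were in 22 of 28 windows of the mitosis list (78.6%), in 17.9% of the windows of genes that rose, in 11.1% of those of genes that fell and in 11.3% of all windows. The same letters were in 5 of 9 windows of the interferon-inducible GTPases. Stretches are shown for the rising mitosis genes with the largest log2FC that hold the letters, written as above, and the letters begin 98, 23, 29 and 71 bases before the start. Of the other letters searched, TGANTCA, a looser form of the AP-1 site, was in 7.87%, 4.38% and 5.0% of the windows of rising, falling and all tested genes, the cyclic AMP response element TGACGTCA in 1.29%, 2.58% and 2.83%, and TGCNCNC, a looser form of the metal response core, in 54.9%, 67.5% and 60.7%.
Mki67, log2FC 2.57, chr7:135716458-135716487, minus strand: gccgttttggTTTGAAtcgggcgggctgcg
Top2a, log2FC 2.54, chr11:99024193-99024222, minus strand: tagataaaggTTCAAAtgaaactagggaag
Ube2c, log2FC 2.44, chr2:164769890-164769919, plus strand: agggttgcaaTTCAAAcgcgggcggcggcc
Cdk1, log2FC 2.38, chr10:69352964-69352993, minus strand: gattggctccTTTGAAcgtctacgtgcaat

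**Figure D2:**
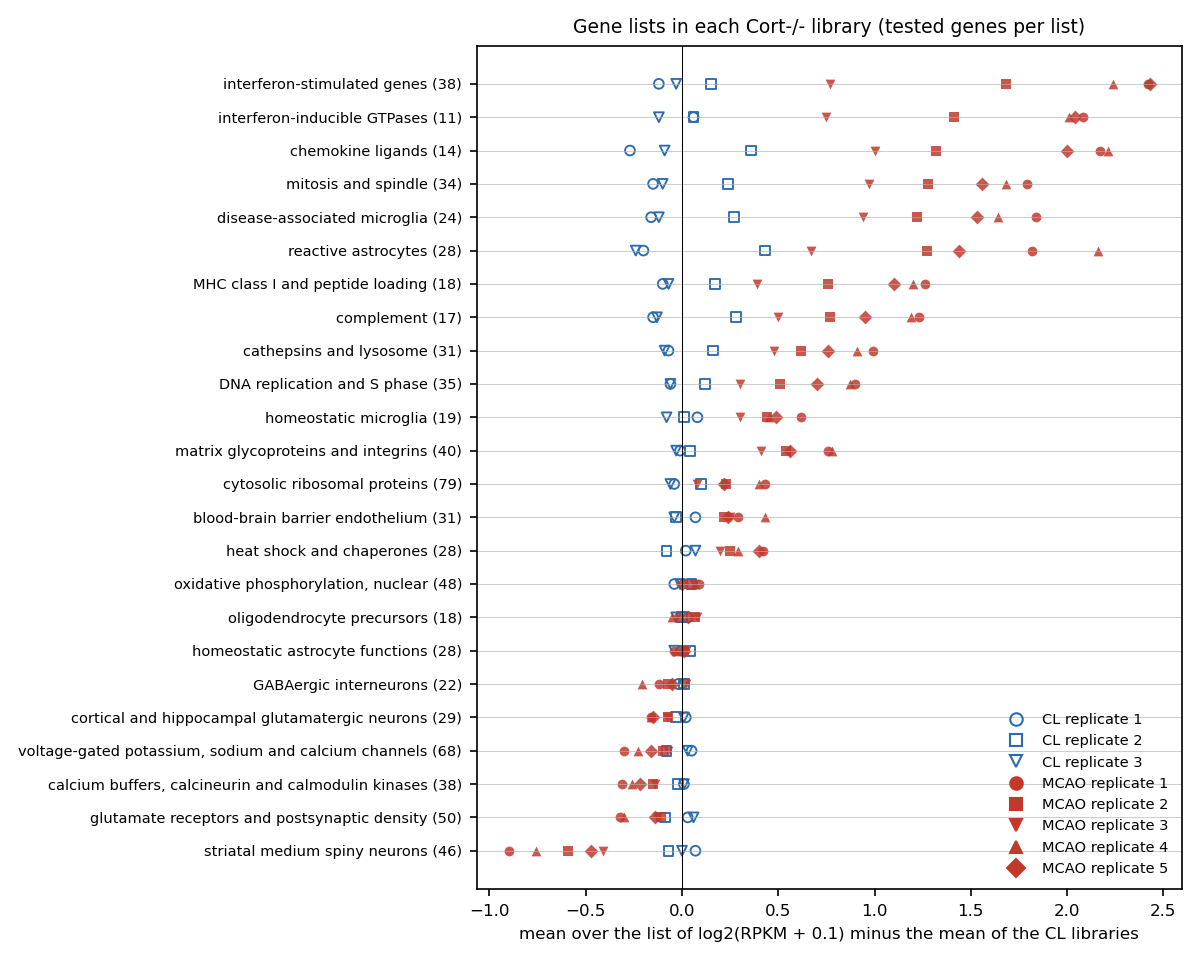
Mean change of 24 gene lists in each library. Each point is the mean over a list of log2(RPKM + 0.1) minus the mean of the 3 CL libraries, open blue symbols are CL and filled red symbols MCAO libraries, and the number of tested genes follows each name. Interferon-stimulated genes reach 0.77 to 2.43 in MCAO libraries with replicate 3 lowest, nuclear oxidative phosphorylation genes stay at 0.09 or less, and medium spiny neuron genes lie at -0.90 to -0.41.

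Vessel, matrix and protease genes rose in part, and the counts below stand beside 5.29% of all genes tested that rose. Endothelial barrier genes were higher in 8 of 31 tested and lower in 0 (median 0.19). Cldn5, the main claudin of brain endothelial tight junctions, was at 13.3, 15.6 and 10.3 RPKM in CL and at 22.0, 18.9, 18.6, 25.4 and 15.4 RPKM in MCAO libraries, where replicate 5 fell within the CL range (0.62 ± 0.15, adjusted p = 0.0237). Kdr, the VEGF receptor, was higher by 0.75 ± 0.17 and Cav1, the caveolar coat protein, by 0.57 ± 0.16. Bsg, an abundant glycoprotein of the list, did not pass (0.12 ± 0.06). Mural cell genes rose in 4 of 18 tested (Tagln, Des, Notch3 and Vtn), led by the contractile protein Tagln (1.42 ± 0.17) and the muscle filament Des (0.91 ± 0.16). Angiogenic ligands and receptors rose in 5 of 28 (Kdr, Edn1, Tie1, Notch1 and Tek), with endothelin Edn1 at 0.68 ± 0.16. Of 40 tested matrix glycoproteins and integrins 15 rose (median 0.44). Lgals1 was at 9.32, 11.8 and 10.7 RPKM in CL and at 52.6, 38.2, 26.2, 55.5 and 34.9 RPKM in MCAO libraries (1.91 ± 0.21, adjusted p = 0.00249), and Cd44, the hyaluronan receptor, rose by 1.84 ± 0.28. Matrix proteases and their inhibitors rose in 8 of 27, among them the kallikrein Klk6 (2.18 ± 0.26) and the urokinase receptor Plaur (1.79 ± 0.33), and leukocyte adhesion genes in 7 of 13. Of 24 tested collagens limma called 1, the neuronal collagen Col25a1, which fell by 0.31 on the log2 scale and lost its call without any CL library or MCAO replicate 1. Higher collagens numbered 2 by voom, 3 with library weights and 2 without MCAO replicate 3 or 5. The endothelial count was 3, 3 and 1 without CL replicate 1, 2 or 3, 2, 4 and 5 without MCAO replicate 1, 4 or 5, and 2 without both CL replicate 2 and MCAO replicate 3. The matrix count was 9 without CL replicate 2 or 3, the protease count was 2, 4 and 4 without CL replicate 1, 2 or 3, 5 without MCAO replicate 1 and 14 without MCAO replicate 3. Adhesion, mural and angiogenic counts were 4, 2 and 1 without CL replicate 1 and 4, 2 and 0 without CL replicate 3. The angiogenic count was also 2 without CL replicate 2, 1 without MCAO replicate 1 or 4, 3 without MCAO replicate 2 or 5 and 2 without both CL replicate 2 and MCAO replicate 3. Tagln, Des, Lgals1, Cd44 and Klk6 were called in all 8 refits. Kdr and Plaur were called in 7, Cldn5 in 5, Edn1 in 4 and Cav1 in 2.

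Stress programmes differed in the share of their genes that rose, with 33.3% of antioxidant and iron genes, 25.0% of heat shock genes and 22.7% of cell death genes against 5.29% of all genes tested. Immediate early genes, the first transcripts after a stimulus, were higher in 3 of 29 tested (median -0.02), namely Fosl1 (2.80 ± 0.48), Atf3 (2.31 ± 0.40) and Myc (0.83 ± 0.20), and Jund, the most abundant, did not pass. Heat shock genes were higher in 7 and lower in 1 of 28, with the small heat shock proteins Hspb1 at 1.59 ± 0.40 and Hspb6 at 1.07 ± 0.25 and the collagen chaperone Serpinh1 at 0.76 ± 0.13. The fall was Dnajb4 (-0.20). Hsp90ab1 had all MCAO libraries (583 to 614 RPKM) above all CL libraries (561 to 582 RPKM) by a log2FC of 0.06 and did not pass. Integrated stress response genes were higher in 2 of 20 tested, Nupr1 (0.93 ± 0.18) and Atf5 (0.46 ± 0.12), and Atf4 itself was at 52.8 to 70.0 RPKM in CL and 53.2 to 64.0 RPKM in MCAO libraries. Antioxidant and iron genes rose in 9 of 27 tested (median 0.25), with the haem-degrading enzyme Hmox1 at 1.59 ± 0.38 and the ferritin light chain Ftl1 at 183, 214 and 198 RPKM in CL and 411, 302, 259, 382 and 318 RPKM in MCAO libraries (0.74 ± 0.15, adjusted p = 0.0127). Of 31 tested hypoxia and glycolysis genes 3 rose, Hk2 (0.86 ± 0.18), the lactate exporter Slc16a3 (0.62 ± 0.17) and Ldha (0.26 ± 0.06). Metallothionein and zinc genes gave 1 DEG of 13, the importer Slc39a8 (0.42 ± 0.11), while Mt2 overlapped between hemispheres (0.74 ± 0.37). Cell death and p53 target genes rose in 5 of 22 tested (with Bax and Phlda3), including Bcl2a1b (1.99 ± 0.29), Casp8 (1.19 ± 0.24) and the pore-forming gasdermin Gsdmd (1.04 ± 0.19). Fosl1, Atf3, Serpinh1, Bcl2a1b and Gsdmd were called in all 8 refits. Nupr1 and Casp8 were called in 7, Hk2, Ldha and Ftl1 in 6 and Hspb6 in 5. Hmox1 was called in 4, Hspb1 and Atf5 in 3, Myc in 2 and Slc16a3 in 1. The heat shock rises numbered 2, 4 and 2 without CL replicate 1, 2 or 3 and 2 and 4 without MCAO replicate 1 or 5, the antioxidant rises 3, 6 and 2 without CL replicate 1, 2 or 3 and 5 without MCAO replicate 1 or 4, and the glycolysis rises 0, 1 and 1 without CL replicate 1, 2 or 3. The stress response count was 0 and 1 without CL replicate 1 or 2, 1 without MCAO replicate 1, 4 or 5, and 3 and 4 without MCAO replicate 2 or 3. Slc39a8 lost its call without any CL library and without MCAO replicate 1, 4 or 5.

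Ribosomal protein genes rose in part, and the counts below stand beside 5.29% of all genes tested that rose. All 79 tested cytosolic ribosomal protein genes had a log2FC above 0 (0.02 to 0.74, median 0.27), and 19 of them passed (24.1%), with Rplp0, a stalk protein often used for normalization in qPCR, at 109, 121 and 109 RPKM in CL and at 193, 150, 129, 181 and 158 RPKM in MCAO libraries (0.51 ± 0.12, adjusted p = 0.0209). The list median was 0.30 after TPM or median-ratio scaling. The ribosomal count was 1, 7 and 0 without CL replicate 1, 2 or 3 and 5, 10, 4 and 11 without MCAO replicate 1, 2, 4 or 5. It was 52 without MCAO replicate 3 and 48 without both this library and CL replicate 2. Of 48 tested nuclear oxidative phosphorylation genes 0 passed by limma (2 at an unadjusted p below 0.05, 0 by voom), with log2FC between -0.07 and 0.15. Of 13 genes of the mitochondrial genome 0 passed by limma (3 at an unadjusted p below 0.05, 0 by voom), with a median of -0.33 that was -0.08 after quantile normalization. Cholesterol synthesis gave 2 DEGs of 24, Ebp (0.42 ± 0.10) and Fdps (0.29 ± 0.07), and lipid droplet and lysosomal lipid genes 6 of 26, with the droplet coat Plin2 going from 2.38 to 2.93 RPKM in CL to 6.51 to 13.9 RPKM in MCAO libraries (1.83 ± 0.30) and the brain fatty acid binding protein Fabp7 rising by 1.13 ± 0.22. Plin2 was called in all 8 refits and Fabp7 in all but the one without CL replicate 1. The lipid count was 3 without CL replicate 1, and the cholesterol count was 0 without it and 1 without CL replicate 2 or 3, without MCAO replicate 1 or without both CL replicate 2 and MCAO replicate 3.

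Genes of the medium spiny neurons of the striatum fell as a group, in a list chosen with earlier results of these data known. Some members, such as Lrrc10b, Ptprv and Drd1, are among the falls that the paper reports, so the counts do not test the group. Of 46 tested genes of this list 35 fell and 0 rose, beside 2.28% of all genes tested that fell. All 46 had a log2FC below 0 (-1.29 to -0.08), and the median was -0.60 against -0.03 over all genes. All MCAO libraries lay below all CL libraries for 42 of them, against 8.55% of all genes tested. Adora2a, the adenosine receptor of the indirect pathway (chromosome 10, 75152560 to 75170628), was at 18.1, 16.0 and 16.6 RPKM in CL and at 4.67, 7.78, 10.6, 6.84 and 8.75 RPKM in MCAO libraries (log2FC -1.17 ± 0.25, adjusted p = 0.0168). Rgs9, a regulator of G protein signalling, was at 14.6, 13.2 and 14.6 RPKM in CL and at 5.31, 7.52, 9.28, 5.84 and 8.48 RPKM in MCAO libraries (-0.98 ± 0.18, adjusted p = 0.0093). In both genes MCAO replicate 1 was the lowest and replicate 3 the highest MCAO library, and neither reached the CL range. The dopamine receptors of both pathways fell. Drd1 was at 13.7, 11.2 and 11.4 RPKM in CL and at 5.92, 7.04, 7.64, 6.19 and 7.96 RPKM in MCAO libraries (-0.79 ± 0.13, adjusted p = 0.00539). Drd2 was at 15.6, 12.7 and 15.2 RPKM in CL and at 5.67, 7.35, 10.2, 5.78 and 9.28 RPKM in MCAO libraries (-0.94 ± 0.22, adjusted p = 0.0205). Signalling partners fell with them, among them the sodium channel subunit Scn4b (-0.95 ± 0.19), the phosphodiesterase Pde10a (-0.82 ± 0.22) and Ppp1r1b, the dopamine-regulated phosphatase inhibitor DARPP-32, which went from 121 to 144 RPKM in CL to 57.8 to 87.3 RPKM in MCAO libraries (-0.76 ± 0.16). Penk, the enkephalin precursor, was at 153, 154 and 146 RPKM in CL and at 83.8, 97.2, 124, 83.5 and 112 RPKM in MCAO libraries (-0.61 ± 0.15, adjusted p = 0.0265). Ptprv (-1.29 ± 0.22) and Lrrc10b (-1.25 ± 0.20) had the largest falls of the list. The count was 10 and 14 without CL replicate 1 or 3, 25 to 40 when any other single library was left out, and 36 without both CL replicate 2 and MCAO replicate 3. Averaged over the list, MCAO libraries lay between -0.90 and -0.41 and CL libraries between -0.07 and 0.07 of the CL mean. Drd1, Rgs9, Lrrc10b and Ptprv were called in all 8 refits, and Scn4b in all but the one without CL replicate 1. Adora2a lost its call without CL replicate 1 or 3 and Drd2 also without MCAO replicate 1, while Ppp1r1b lost it without any CL library, Penk was called in 3 refits and Pde10a in 1, the one without MCAO replicate 3.

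Synaptic and signalling genes of neurons fell in part, and no size was tested against that of the striatal list. The counts below stand beside 2.28% of all genes tested that fell and 5.29% that rose. Of 50 tested glutamate receptor and postsynaptic genes 16 fell and 0 rose (median -0.22), with the scaffold Shank3 at -0.46 ± 0.13, the metabotropic receptor Grm5 at -0.36 ± 0.08 and the abundant kinase Camk2a at 525, 550 and 521 RPKM in CL and 386, 453, 433, 471 and 443 RPKM in MCAO libraries (-0.29 ± 0.07, adjusted p = 0.0215). Calcium buffers, calcineurin and calmodulin kinases fell in 12 of 38 tested, including the hippocalcin gene Hpca (-0.51 ± 0.09) and the calcineurin catalytic subunit Ppp3ca (-0.39 ± 0.08). Voltage-gated channels fell in 9 of 68, cyclic nucleotide and G protein genes in 7 of 40 with 1 higher (Adcy7, 0.44), and monoamine and other modulatory receptors in 6 of 36. GABA receptor and inhibitory synapse genes fell in 5 of 22 (among them Gabrg3, Gabbr1 and Nlgn2) and presynaptic release genes in 3 of 39 (Rims2, Nrxn3 and the complexin Cplx2, -0.29 ± 0.06). Snap25, a membrane fusion protein of the presynaptic terminal, had all MCAO libraries (758 to 824 RPKM) below all CL libraries (885 to 979 RPKM) and did not pass (-0.25 ± 0.10, adjusted p = 0.136). Several of the falling members, such as Adora2a, Scn4b, Pde10a, Drd1 and Hpca, are also in the striatal list. Postsynaptic falls numbered 2, 8 and 0 without CL replicate 1, 2 or 3, 6 and 7 without MCAO replicate 1 or 4, 8 after TPM scaling and 9 without both CL replicate 2 and MCAO replicate 3. Calcium gene falls numbered 2, 4 and 5 without CL replicate 1, 2 or 3, 6 and 7 without MCAO replicate 1 or 4 and 5 without both CL replicate 2 and MCAO replicate 3. Channel, modulatory receptor, GABA and presynaptic falls numbered 0, 2, 1 and 0 without CL replicate 1, 2, 2, 1 and 0 without CL replicate 3, and 5, 3, 1 and 1 without MCAO replicate 1. Without CL replicate 2 the channel, GABA and presynaptic falls numbered 5, 1 and 1, the GABA falls were 9 without MCAO replicate 3 and 3 without MCAO replicate 4 or 5, and the presynaptic falls were 1 without MCAO replicate 4 or 5. The cyclic nucleotide falls numbered 3 without CL replicate 1 or 3. After TPM scaling the channel, GABA and presynaptic falls numbered 4, 2 and 1. Hpca was called in all 8 refits, Ppp3ca in all but the one without CL replicate 1, and Camk2a was lost without any CL library. Gabrg3 was called in all 8, Cplx2 in 6, Grm5 in 4, Gabbr1 in 3, Shank3 and Nrxn3 in 2 and Rims2 in 1.

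Calls among genes of cortical neurons and of interneurons were all falls. In the list of cortical and hippocampal glutamatergic neurons 5 of 29 tested genes fell (median -0.11), or 17.2% against 2.28% of all genes tested. They were Bcl11b, Foxp2, Nrgn, Camk2a and Calb1, of which Bcl11b (-0.48) and Foxp2 (-0.47) are transcription factors that striatal neurons also express. The cortical markers Slc17a7, Tbr1 and Neurod6 were not among them, and Slc17a7, the vesicular glutamate transporter of cortical neurons, was at 382 to 384 RPKM in CL and 355 to 410 RPKM in MCAO libraries. The count of this list was 0, 1 and 0 without CL replicate 1, 2 or 3, 2 and 3 without MCAO replicate 1 or 4, and 2 without both CL replicate 2 and MCAO replicate 3. Among 22 interneuron genes 1 fell, beside 2.28% of all genes tested, so the list is not read as a fall of interneurons. It was the tachykinin precursor Tac1 (-0.48 ± 0.12), which striatal neurons of the direct pathway make too. Sst, the gene of the related peptide somatostatin, was at 150 to 172 RPKM in CL and 136 to 175 RPKM in MCAO libraries (-0.07 ± 0.10). Of 29 neuropeptide genes 2 fell, Penk and Tac1, and Tac1 kept its call only without MCAO replicate 3 or 5. Oxt, the oxytocin gene, was at 17.7, 29.8 and 24.7 RPKM in CL and at 22.3, 18.3, 19.3, 2.10 and 8.99 RPKM in MCAO libraries, and its value of -1.11 did not pass (adjusted p = 0.411). Of 4 tested receptors for cortistatin and somatostatin 0 passed by limma (0 at an unadjusted p below 0.05, 0 by voom, -0.11 to 0.02), with Sstr4 at 5.38 to 8.84 RPKM in CL and 5.36 to 8.42 RPKM in MCAO libraries and Sstr3 at 5.58 to 6.08 and 5.05 to 5.94 RPKM. A value that does not pass does not show that a gene is unchanged, and the SEs of these receptors were 0.18 and 0.07.

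**Figure D3:**
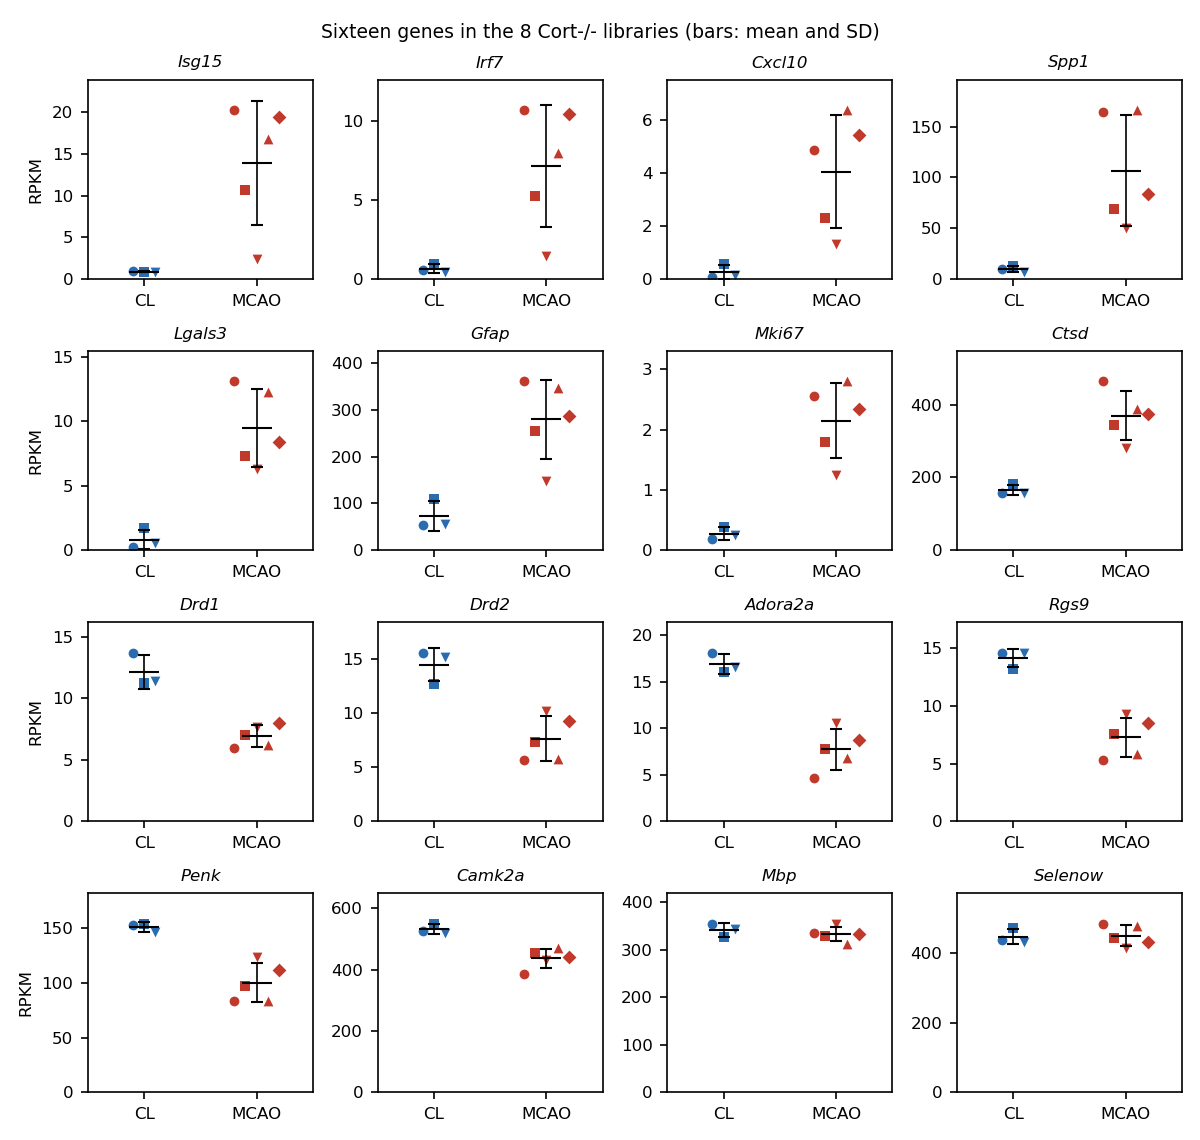
RPKM of 16 genes in each library. Points are libraries (symbol by replicate number, CL blue, MCAO red), bars the mean and SD of 3 CL and 5 MCAO libraries, and each panel has its own linear axis from 0. Rising genes such as Spp1 (7.36 to 12.7 against 50.1 to 166 RPKM) and falling genes such as Drd1 (11.2 to 13.7 against 5.92 to 7.96 RPKM) do not overlap, while Mbp and Selenow do.

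Of 28 tested oligodendrocyte and myelin genes 3 rose (10.7%), the iron carrier transferrin Trf (109, 102 and 111 RPKM in CL and 277, 182, 174, 258 and 238 RPKM in MCAO libraries, log2FC 1.05 ± 0.15, adjusted p = 0.00390), the connexin Gjb1 (0.67 ± 0.18) and Mag (0.24 ± 0.07), while the myelin protein Mbp overlapped between hemispheres (-0.04 ± 0.07). Trf was called in all 8 refits, and Gjb1 and Mag in 1 each, the one without MCAO replicate 2. Oligodendrocyte precursor genes (18 tested), ependymal and ciliary genes (23), and choroid plexus genes (19) gave 0 DEGs by limma, 3, 3 and 1 genes at an unadjusted p below 0.05 and 0 by voom, with medians of 0.01, -0.16 and 0.13. The counts of this paragraph stand beside 5.29% of all genes tested that rose and 2.28% that fell, and small ones are not read as class changes. Meningeal and perivascular fibroblast genes gave 2 of 18, the proteoglycan Dcn (0.67 ± 0.10) and the retinoic acid enzyme Aldh1a2 (0.66 ± 0.18), and neuroblast genes 1 higher, Tubb2b (0.66 ± 0.11), and 1 lower, Sp9 (-0.43 ± 0.10), of 20. Growth factors and receptors rose in 4 of 37, with the insulin-like growth factor binding proteins Igfbp7 (1.02 ± 0.22), Igfbp2 (0.83 ± 0.18) and Igfbp5 (0.57) and the EGF family ligand Hbegf (1.07 ± 0.14). Axon injury genes rose in 3 of 18, Atf3, Tnfrsf12a and Hbegf, and axon guidance genes were higher in 2 (Epha2 and Plxnb2) and lower in 6 of 59, with the ephrin receptor Epha2 at 0.86 ± 0.21 and the netrin receptor Dcc at -0.36 ± 0.10. Epha2, Plxnb2 and Dcc were called in 3, 1 and 2 of the 8 refits. Clock and glucocorticoid target lists gave 1 DEG each, both falls, Hlf (-0.32 ± 0.06) of 20 and the mineralocorticoid receptor Nr3c2 (-0.28 ± 0.06) of 20. Axon guidance calls numbered 0, 1 and 1 without CL replicate 1, 2 or 3, 2 without MCAO replicate 1 or 4, 4 without MCAO replicate 5 and 3 without both CL replicate 2 and MCAO replicate 3, the growth factor calls 2 without CL replicate 1 or 3, and Dcn, Tubb2b and Hbegf were called in all 8 refits. Sp9 and Nr3c2 lost their call without CL replicate 1 or 3, Hlf without CL replicate 1, and Aldh1a2 without any CL library or MCAO replicate 1 or 4.

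Among DEGs that averaged 1 RPKM or more and did not overlap between hemispheres, the 12 largest rises were Tgm1, Ccl12, Lgals3, Cxcl10, Isg15, Gm42793, Msr1, Spp1, Gm49339, Lilrb4a, Mir7676-1 and Phf11b. Tgm1, a transglutaminase that crosslinks proteins (chromosome 14, 55937466 to 55951383), had the largest, at 0.116, 0.780 and 0.154 RPKM in CL and at 7.84, 5.98, 4.38, 12.5 and 6.46 RPKM in MCAO libraries (log2FC 4.28 ± 0.55, adjusted p = 0.00305), and was called in all 8 refits. The inhibitory leukocyte receptor Lilrb4a was at 0.283, 1.13 and 0.279 RPKM in CL and at 7.75, 3.62, 2.66, 9.70 and 5.21 RPKM in MCAO libraries (3.24 ± 0.69, adjusted p = 0.0153), and the interferon-induced Phf11b rose by 3.20 ± 0.62. Both lost their call without CL replicate 1 or 3. In 3 cases reads cannot be assigned with certainty, as Gm42793 lies over Spp1, Gm49339 over Lilrb4a and Mir7676-1 within Csf2rb2, on the same strand. In RPKM, the largest rises were Gm56125 within Ftl1, Gm54878 within Rpl19, Gm49369 over Ctsd, then Gfap, Ctsd, Ftl1, Trf and Spp1. Among the 12 largest falls were Mir434, Cd4, Gm26109, Lrrc10b, Sh3rf2, Adora2a, Gpr6, ENSMUSG00000125833, Gm3828, Rgs9 and Gm49702, where Gm3828 lies within Gng7 and Gm49702 within Adcy5, both of which fell (-0.66 and -0.65). Lrrc10b was at 21.4, 17.9 and 24.1 RPKM in CL and at 6.33, 8.38, 10.8, 8.08 and 11.2 RPKM in MCAO libraries (-1.25 ± 0.20, adjusted p = 0.00550). In RPKM the largest falls were the abundant neuronal transcripts Nrgn, Ddn, Camk2a, Ncdn, Fbxl16, Meg3, Camk2n1 and Hpca. Ddn, a dendritic protein, was at 307, 299 and 305 RPKM in CL and at 185, 221, 232, 187 and 211 RPKM in MCAO libraries (-0.56 ± 0.09, adjusted p = 0.00539), called in all 8 refits, and Nrgn, the calmodulin-binding neurogranin, at 598, 565 and 626 RPKM in CL and at 439, 514, 501, 507 and 465 RPKM in MCAO libraries (-0.30 ± 0.08, adjusted p = 0.0416), called in 2. Selenow, an abundant selenoprotein gene, was at 432 to 473 RPKM in CL and 415 to 485 RPKM in MCAO libraries and did not pass (0.01 ± 0.08).

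The 62 lists together hold 1496 tested genes and 390 of the DEGs. The other 932 DEGs, 623 higher and 309 lower, are in no list. Grouped by the letters of their symbol, 172 families had at least 10 tested genes, and 63 of them had no call. Shared letters do not always mean related genes. The shares named next are the extremes of these families and were not tested. Over all genes tested 5.29% rose and 2.28% fell. The highest shares that rose were in the Ccl chemokines (6 of 13), Parp (4 of 12), Tnfrsf (4 of 12), Irf (3 of 10), Dock (3 of 11) and Itga integrins (3 of 11), and the Parp members that rose, Parp9, Parp10, Parp12 and Parp14, are interferon-induced ADP-ribosyltransferases. The highest shares that fell were in Camk (4 of 10), Atxn (2 of 11), Scn sodium channels (2 of 11), Samd (2 of 12), Cacna calcium channels (2 of 12) and Pde phosphodiesterases (3 of 21). By limma 0 genes passed among the Zbtb transcription factors (41 tested), the Ddx RNA helicases (33), the Med subunits of the mediator complex (30) and the Cfap proteins of cilia (36), and the zinc finger genes named Zfp gave 0 higher and 6 lower of 359. By gene class, 6.34% of 13917 protein-coding genes rose and 2.51% fell, while among 1768 lncRNAs 1.02% rose and 1.47% fell. Of the 42 non-coding DEGs that rose, 13 overlap a gene called higher, and of the 48 that fell, 5 overlap a gene called lower, so reads of these pairs cannot be separated. Any annotated gene on either strand, called or not, is overlapped by 37 of the rising and 39 of the falling ones. Several rising genes of high log2FC outside the lists, named after their values were seen, belong to myeloid cells or the cytoskeleton, namely the B and myeloid cell receptor Cd72 (3.07), the tubulin Tubb6 (3.03), the Toll-like receptor partner Cd180 (2.83) and the immunoglobulin receptor Fcgr4 (2.66).

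The response of Cort-/- mice was set against that of Cort+/+ mice only by the interaction, the difference between the log2FCs of the genotypes, each against its own CL libraries. By limma 0 of 17477 genes passed (lowest adjusted p = 1.0), 273 genes (1.56%) had an unadjusted p below 0.05, and voom on recovered reads also passed 0. Of the 924 genes that rose in Cort-/- mice 918 had a log2FC above 0 in Cort+/+ mice, with a median of 0.53, and of the 398 that fell 388 were below 0 there, with a median of -0.16. These medians are nearer 0 than those of Cort-/- mice (0.78 and -0.27), by which the genes were chosen. For the interferon-stimulated list the Cort+/+ median was 1.28 and for medium spiny neurons -0.40, and 0 genes of either list had an interaction p below 0.05 before adjustment. No difference between genotypes was detectable with these numbers of libraries. The Cort+/+ MCAO libraries are labelled replicates 2, 3 and 4, and how they were chosen is unknown.

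**Figure D4:**
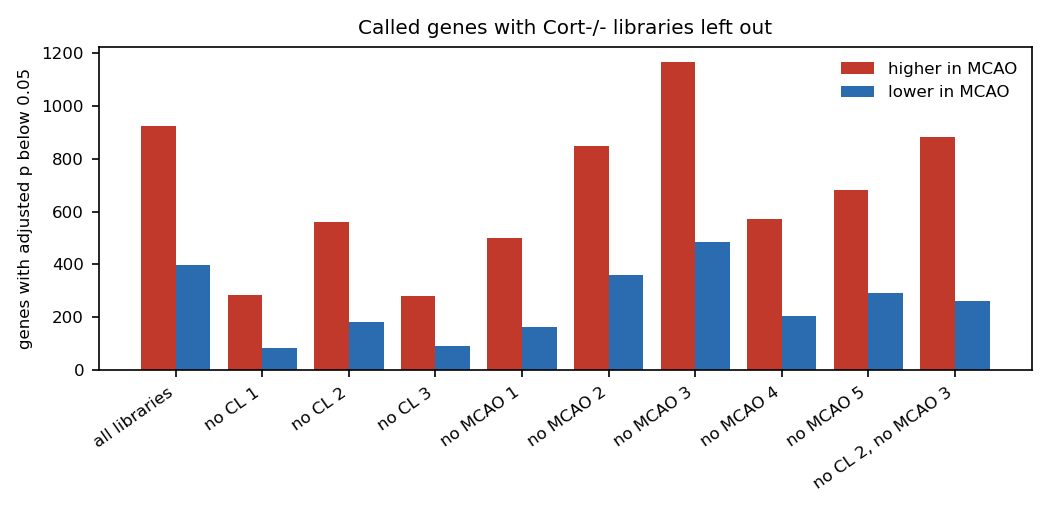
Genes called when libraries are left out. Bars give the number of genes with an adjusted p below 0.05, higher (red) or lower (blue) in the MCAO hemisphere, with all libraries, without each of the 8 Cort-/- libraries in turn, and without CL replicate 2 and MCAO replicate 3 together. The counts range from 280 to 1164 higher and from 84 to 483 lower when 1 library is left out, against 924 and 398 with all.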

How the data were processed

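RNA of brain hemispheres of 5 MCAO and 3 CL libraries of Cort-/- mice was analysed with 6 libraries of Cort+/+ mice. The libraries were prepared from mRNA with a stranded kit, sequenced in pairs and aligned by the authors to GRCm39, and the deposited values are RPKM per gene and library, without pooling. Counting rules, strand use and lengths are not given in the sources used here. Dividing by a per-gene step returned whole reads for 100.0% of 495656 values above 0 (tolerance 0.0001 reads), and depths are those reads. Gene positions are from GENCODE M39, which named 46792 of 46904 symbols.

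Genes averaging 0.5 RPKM or more over the 8 Cort-/- libraries were tested, a filter that a gene high in 1 hemisphere can pass through that hemisphere alone. Values log2(RPKM + 0.1) were fitted with limma 3.58.1 in R 4.3.3 (one model of 4 groups over 14 libraries, moderated variances with trend). Calls have a Benjamini-Hochberg adjusted p below 0.05. The hemispheres of 1 animal cannot be linked through the labels. P-values measure the spread between these libraries, which the study describes as biological replicates. Lists and families are described by counts and medians, with no set test. The text names the 12 largest rises and falls, the 8 largest changes in RPKM in each direction, per list the 3 called members of largest log2FC and the most abundant, and abundant genes with changes near 0; other genes are examples. The members and lists were chosen with earlier results of these data known. Alternatives were other pseudocounts, filters, scalings, weights, robust moderation, voom on reads, a replicate block, fewer groups and left-out libraries; leaving out CL replicate 2 with MCAO replicate 3, and voom on 8 libraries, were added after seeing the data. Each step was tested on simulated data. Figures and counts used Python 3.11.15, numpy 2.4.6, pandas 2.3.3 and matplotlib 3.10.9. Some genes that these rules select are not reported here.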

Additional observations from a re-analysis of the deposited data

Results flagged for a closer look

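Among 39 genes examined for a library far from the others, 2 had one in the MCAO group by Dixon's ratio, which chance exceeds in about 1 group of 20. Gm26109, a snoRNA gene within Hspa9, was at 0.329 RPKM in MCAO replicate 2 against 1.08 to 1.37 RPKM in the other MCAO libraries. It was called in 3 of 8 refits with 1 library left out, the one without MCAO replicate 2 among them. Gm49702, a transcript within Adcy5, was at 1.86 RPKM in MCAO replicate 5 against 0.831 to 1.06 RPKM in the others. It was called in 1 of 8 refits, the one without MCAO replicate 5.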

How the results depend on the processing

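Over the 30 alternatives, 0 of 6493 recomputed values of the named genes changed sign among called genes, 5674 stayed on the same side of the threshold, 812 lost the call and 7 gained it. Counts moved more. DEGs numbered 370 to 1647 (280 to 1164 higher, 84 to 483 lower) when 1 Cort-/- library was left out and 1059 to 1401 (774 to 953 higher, 285 to 448 lower) when 1 Cort+/+ library was. Without a mean filter there were 792 DEGs, of which 176 were lower, in 46102 genes tested, and with a filter of 2 RPKM 611 were higher. Lower DEGs numbered 256 after median-ratio scaling, 193 after TPM scaling, 699 with library weights, 239 in a model of the 8 Cort-/- libraries alone, and 261 without CL replicate 2 and MCAO replicate 3, and the cause was not tested. With the replicate number as a block within genotype 0 genes passed, 0 higher and 0 lower (2902 at an unadjusted p below 0.05, lowest adjusted p = 0.0626), all 1322 DEGs keeping their sign. Same-numbered Cort-/- libraries correlated by -0.047, -0.174 and 0.057 in their deviations, so the number was not used to pair samples, and which hemispheres share an animal is unknown. Voom called 1399 genes, 1220 of them shared. Without a filter the interaction gave 1 gene, Gm55190, at 0 in all Cort-/- libraries. With 3 CL libraries, removal of 1 leaves 2 to set their level.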

Other observations

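Transcripts of the imprinted Meg3 to Mirg region on chromosome 12 (GRCm39, 109506877 to 109715898), a cluster of maternally expressed non-coding RNAs, microRNA precursors and snoRNAs that neurons express, lay below 0 as a group. This region was noticed after the values were seen, so no test is given. Of 64 tested genes in it 54 had a log2FC below 0, with a median of -0.34 against -0.03 over all genes. As falls 5 passed (Meg3, Mir434, Mir3070b, Mir541 and Mir1188), beside 2.28% of all genes tested, and none passed as a rise. Some lie within the longer transcripts Meg3, Rian and Mirg, such as Mir1188 in Rian and Mir541 in Mirg, and are not separate counts. Meg3, a long non-coding RNA, was at 260, 307 and 296 RPKM in CL and at 192, 213, 248, 195 and 240 RPKM in MCAO libraries (log2FC -0.41 ± 0.10, adjusted p = 0.0229), with no overlap, and was called in 4 of 8 refits, those without CL replicate 2 or 3 or MCAO replicate 1 or 4 losing it. Mir434 was at 3.09, 2.88 and 1.64 RPKM in CL and at 0.733 to 0.833 RPKM in MCAO libraries (-1.55 ± 0.39, adjusted p = 0.0332), on at most 10 reads in a CL library, and was called in 1 refit. MicroRNA features in the region had a median of -0.41 (44 tested, 36 below 0, 4 fell), and those elsewhere -0.06 (532 tested, 295 below 0, 3 fell). In Cort+/+ mice the median of the region was -0.05, and the difference between genotypes was not tested for the region as a set. Of the 5 falls, Mir1188, Mir434 and Mir3070b were at 0.24, 0.15 and -0.0 in Cort+/+ mice. Their interaction p-values by limma were 0.00534, 0.0135 and 0.0157 before adjustment. Meg3 and Mir541 were at -0.27 and -0.45 there, with interaction p-values of 0.362 and 0.371. After adjustment no gene passed the interaction test. The long transcripts Meg3, Rian and Mirg were at -0.27, -0.15 and -0.16 in Cort+/+ mice and at -0.41, -0.23 and -0.22 in Cort-/- mice. These libraries were made from mRNA, so such features hold reads of longer transcripts and not mature microRNAs.

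MicroRNA features shared reads with other genes. Of 12 called higher 6 overlap a gene called higher, such as Mir5107 (1.82) in Cd74 (1.61) and Mir147 (2.46) in AA467197 (1.83). Of 7 called lower 1 overlaps a gene called lower, Mir935 (-0.27) in Cacng8 (-0.24). With any annotated gene on either strand, called or not, 12 of the higher and 6 of the lower features overlap. Mir124a-1, the precursor of a microRNA abundant in neurons, fell by 0.63 on the log2 scale within a host transcript that did not pass (-0.19).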
